A study of Mus musculus with 120 samples.

Results

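The 32 genes described here encode the enzymes of glycolysis and of the pentose phosphate pathway, the carriers that bring glucose in and move lactate out, the entry of pyruvate into mitochondria, and Hif1a, a transcription factor known to induce glycolytic genes. They were taken by name from a list of glycolysis and pentose phosphate genes, out of 46078 gene identifiers in the deposited count tables, and all 32 were found. The rule uses names alone and no level. Of the 32 genes, 17 averaged 50 CPM or more (reads of a gene per 1000000 gene reads) over the 12 groups and were compared by fold, and the other 15 are described by their levels. Hif1a lay just above that limit at 55.1 CPM, and the nearest gene below it was Pdha1 at 33.0 CPM.

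The cells were 120 single group 2 innate lymphoid cells (ILC2) of wild-type C57BL/6 mice, tissue lymphocytes known for making IL-13 and IL-5, cytokines of allergic and anti-parasite responses. Mesentery of 20 mice had been pooled, cells without lineage markers but with c-Kit and Sca-1 were sorted from it, and, per the methods of the study, they were kept in culture with IL-2 before the experiment. Secretion of 1 cytokine, called the index, was followed in live cells, with IL-13 as the index for 60 cells and IL-5 for the other 60. Each index had 5 pre-stimulation cells that received no stimulus, and 11 cells in each of 5 states after stimulation with IL-2 and IL-33: 30, 60 or 90 min after secretion began, activated (secreting late in the stimulation) and silent (not secreting at that time). The samples carry no animal or culture of origin, so cells of a group were summed as 1 sample, no test between groups was run, and the intervals given are 95% intervals that cover counting error only. All groups share the strain and the sort, and cells of 1 group can share an animal.

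In glycolysis, glucose is phosphorylated, split into a pair of triose phosphates and oxidised to pyruvate, with a net gain of ATP. Pyruvate is either reduced to lactate, which restores NAD+, or carried into mitochondria. The pentose phosphate pathway branches off at glucose 6-phosphate and gives NADPH and ribose 5-phosphate, the sugar of nucleotides. Activated lymphocytes are known to raise the flux through both pathways.

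Promoters of 2 genes are shown because Pgam1 and Ldha were higher in activated than in pre-stimulation cells of both indexes and because their windows hold letters that are known as a binding motif of Myc family factors (CACGTG, the E-box) or as the core of the hypoxia response element, of which the form ACGTG and the form GCGTG were searched. They were thus picked after their matches were seen. Each line gives the 250 bases before the annotated start, 5′ to 3′ (RefSeq, GRCm38.p6), with matches to any of the 3 motifs on either strand in capitals.
Pgam1, chr19:41911621-41911870, plus strand: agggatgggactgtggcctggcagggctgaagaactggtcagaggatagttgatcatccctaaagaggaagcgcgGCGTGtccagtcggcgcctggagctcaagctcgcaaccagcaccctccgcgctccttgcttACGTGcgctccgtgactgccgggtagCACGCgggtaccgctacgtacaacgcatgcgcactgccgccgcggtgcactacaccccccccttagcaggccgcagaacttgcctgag
Ldha, chr7:46845554-46845803, plus strand, first of its annotated starts: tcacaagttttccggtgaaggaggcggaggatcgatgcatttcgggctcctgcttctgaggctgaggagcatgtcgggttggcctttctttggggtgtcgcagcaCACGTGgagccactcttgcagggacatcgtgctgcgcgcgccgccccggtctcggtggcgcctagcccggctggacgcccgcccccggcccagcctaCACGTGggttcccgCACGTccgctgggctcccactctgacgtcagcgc
Both strands were searched. The Pgam1 window held 1 match to ACGTG and 2 matches to GCGTG. The Ldha window held 2 E-boxes, and 5 matches to ACGTG of which 4 are inside those E-boxes, since each E-box holds that core on either strand. RefSeq promoters were matched for 31 of the 32 genes, all but Slc2a3, with 46 starts in all. The E-box stood in the windows of 5 of the 31 genes (Hif1a, Ldha, Pfkfb3, Pfkm and Slc16a1) against 6.02% of all 32851 promoters of the same length. The core ACGTG stood in those of 12 genes, against 16.6% of all promoters. The core GCGTG stood in those of 22 genes, against 28.2%. Counted by start, the E-box stood in 5 of 46 windows, the core ACGTG in 15 and the core GCGTG in 26. Of the windows looked at and not printed, that of Tpi1 held 0 matches to any of the 3 motifs, that of Gapdh 2 matches to GCGTG alone, and the second Ldha start 1 match to GCGTG alone. The bases right after the starts of the 2 printed windows were not found in GENCODE transcripts of these genes, so these starts rest on RefSeq alone. For Tpi1, Gapdh and the second Ldha start, not printed, those bases were found there. A match is a description of letters only.

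Gene reads per cell had a median of 254001 and ran from 65 to 785198. The 6 cells with under 84667 gene reads (the median divided by 3) stayed in the sums, where they weigh little, and were left out of all values per cell, which leaves 114 cells. Markers of ILC2 were read in all 120 cells, at a summed 6274 to 13763 CPM by group. Their sum was lowest in the late states, with 6274 CPM in activated and 6888 CPM in silent cells against 11716 CPM before stimulation with IL-13, and 8398 and 7760 CPM against 11097 CPM with IL-5. Single markers differed. From pre-stimulation to activated cells Ly6a went from 6586 to 2387 CPM with IL-13 and from 5395 to 2840 CPM with IL-5. Rora went from 91.25 to 545.5 CPM and from 190 to 592 CPM, and Il2ra from 406.5 to 1226 CPM and from 213 to 2566 CPM. Defining markers of B cells, myeloid cells, natural killer cells, adipocytes and fibroblasts had 0 reads in every cell, the ILC3 marker was read in 2 cells, and the mast cell markers in 16 cells at 0 to 326 CPM by group, with Mcpt4 at 0. T cell markers were read in 30 cells, at 1128 and 1195 CPM in the pre-stimulation groups of the IL-13 and IL-5 index and at 0 to 523 CPM in the others, with Cd4 and Cd8a at 0 throughout and Cd3g giving most of these reads. One pre-stimulation cell of the IL-13 index had 10986 CPM of cycling-cell genes, against at most 1290 CPM in any other cell. The part of these markers and of that cell in the results was not tested, and values without the cycling cell are given beside the pyruvate entry genes, Tpi1, Pgam1 and Eno1.

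The share of gene reads that came from the 32 genes was lowest in pre-stimulation cells and highest in activated and silent cells of both indexes. In the sums over the IL-13-indexed cells it was 0.372% before stimulation (95% interval 0.3601 to 0.3845%), 0.524%, 0.520% and 0.439% at 30, 60 and 90 min, 0.608% (0.5999 to 0.617%) among activated and 0.735% (0.725 to 0.745%) among silent cells. The IL-5-indexed cells had 0.429% (0.417 to 0.440%), 0.544%, 0.543%, 0.450%, 0.790% (0.781 to 0.799%) and 0.766% (0.756 to 0.775%) in that order. Groups at 90 min thus lay below the 30 and 60 min groups in both indexes, and these are different cells, not the same cells followed over time. The 90 min groups were also the shallowest stimulated groups, with 1665567 and 1829194 gene reads against 2676904 to 3551694 at 30 and 60 min. Over the 114 cells the share had a Pearson correlation of 0.346 with gene reads per cell, across cells that share states and dates, and the part of depth in the differences between groups was not tested.

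Single cells of a group differed widely and the groups overlapped. The 5 pre-stimulation cells of the IL-13 index held 0.366%, 0.235%, 0.533%, 0.265% and 0.447%, and those of the IL-5 index 0.575%, 0.610%, 0.381%, 0.298% and 0.316%. Activated cells had a lowest, median and highest share of 0.395%, 0.618% and 0.807% with IL-13 as the index, and of 0.475%, 0.787% and 1.22% with IL-5. Silent cells had 0.220%, 0.678% and 1.35%, and 0.486%, 0.688% and 1.35%, respectively. The highest pre-stimulation cell was exceeded by 7 of 11 activated and 9 of 11 IL-13-indexed silent cells and by 8 of 11 and 8 of 10 of the IL-5 index. It was exceeded by 6 of 11, 4 of 11 and 1 of 9 cells at 30, 60 and 90 min after IL-13 onset, and by 2 of 10, 3 of 10 and 0 of 10 after IL-5 onset.

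**Figure D1:**
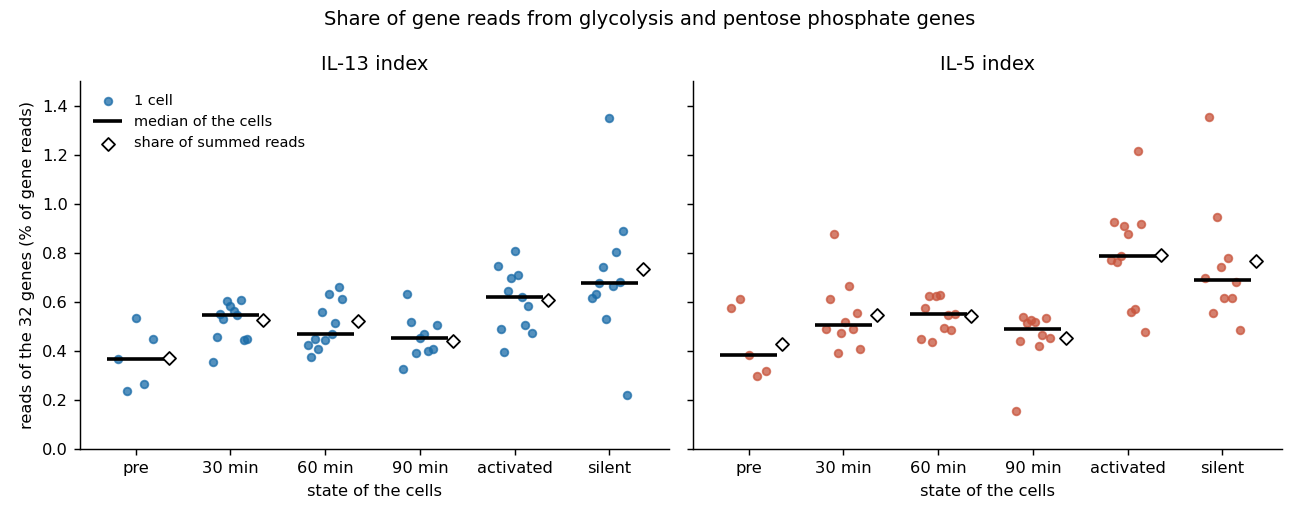
Share of gene reads from the 32 genes (% of gene reads, vertical axis) in each of the 114 cells by state (horizontal axis), with the IL-13 index on the left and the IL-5 index on the right. Points are cells, bars their median and open diamonds the share of the summed reads. Activated and silent cells reach higher than pre-stimulation cells, with overlap, and a silent cell of each index stands at 1.35%.

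As log2 ratios, activated over pre-stimulation cells gave 0.71 (95% interval 0.66 to 0.76) with IL-13 and 0.88 (0.84 to 0.93) with IL-5. Leaving out any 1 cell moved these to between 0.60 and 0.84 and between 0.75 and 1.105. Silent over pre-stimulation cells gave 0.98 (0.93 to 1.03) and 0.84 (0.79 to 0.88), and the 30 min cells over pre-stimulation cells gave 0.49 (0.44 to 0.55) and 0.34 (0.30 to 0.39). All 3 comparisons of an index share its 5 pre-stimulation cells, so they are not separate observations of a low start. Activated cells were below silent cells with IL-13 as the index, at -0.27 (-0.30 to -0.24), and close to them with IL-5, at 0.05 (0.02 to 0.07), where leaving out 1 activated cell gave -0.02 and leaving out the silent cell of the highest share gave 0.20. Activated over 30 min cells gave 0.22 (0.18 to 0.25) and 0.54 (0.51 to 0.56).

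Each index carries 2 dates in its sample titles, 0 of which the indexes share, so that index and date cannot be told apart, and unstimulated cells bear the earlier one alone. Within the first date, activated over pre-stimulation was 0.68 and 0.95 for IL-13 and IL-5, silent over pre-stimulation was 0.80 and 1.03, and 30 min over pre-stimulation was 0.44 and 0.41. Activated over silent in the IL-13 index was -0.12 on the first date and -0.34 on the second, and in the IL-5 index it was -0.08 and 0.24, so its direction differed between the dates of the IL-5 index. Pre-stimulation against later states can therefore be compared on 1 date alone.

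A few genes carried most of the reads. Aldoa, the muscle-type aldolase that splits fructose 1,6-bisphosphate, gave 28.0% of the reads of the 32 genes over all cells and between 18.4% (activated, IL-5) and 37.7% (30 min, IL-13) by group. Gapdh gave 8.98%, Pkm 7.90%, Taldo1 7.05%, Mpc2 6.52%, Ldha 6.32% and Tpi1 5.11%. These are shares of reads from the 3′ ends of transcripts, not levels per length, and no order of transcript levels between genes is read from them. Without Aldoa, the log2 ratio of 30 min over pre-stimulation cells was 0.17 (0.11 to 0.23) with IL-13 and 0.22 (0.17 to 0.27) with IL-5, while activated over pre-stimulation was 0.75 (0.69 to 0.81) and 1.07 (1.02 to 1.12). The share without Aldoa at 30 min, in activated and in silent cells was 0.327%, 0.488% and 0.554% with IL-13, and 0.358%, 0.645% and 0.541% with IL-5. Activated cells thus lay further above 30 min cells than with Aldoa, and in the IL-5 index further above silent cells.

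By role, the lower part of glycolysis (Gapdh, Pgk1, Pgam1, Bpgm, Eno1 and Pkm, from glyceraldehyde 3-phosphate to pyruvate) took 0.0909% of gene reads before stimulation, 0.189% in activated and 0.176% in IL-13-indexed silent cells, and 0.0817%, 0.237% and 0.193% in the IL-5 index. Its log2 ratio of activated over pre-stimulation cells was 1.05 (0.95 to 1.16) and 1.54 (1.44 to 1.63). The pentose phosphate genes took 0.0469%, 0.101% and 0.151%, and 0.0652%, 0.149% and 0.120%, with activated over pre-stimulation at 1.11 (0.97 to 1.26) and 1.195 (1.088 to 1.305). The upper part (hexokinases to triose phosphate isomerase) gave 0.51 (0.42 to 0.59) and 0.67 (0.60 to 0.74) for the same comparison. The pyruvate entry genes (Pdha1, Pdk1, Mpc1 and Mpc2) gave -0.31 (-0.44 to -0.18) with IL-13 as the index, which was 0.01 without the cycling pre-stimulation cell, and -0.05 (-0.16 to 0.07) with IL-5, which was 0.37 without pre-stimulation cell 2. The lactate genes differed between the indexes, at 1.68 (1.45 to 1.92) and 0.49 (0.37 to 0.62), a difference that was not tested and cannot be told apart from that of the dates. In pre-stimulation cells of the IL-5 index, Ldha gave 54.8% of the reads of Ldha and Ldhb. Ldhb was read there in cells 3 and 5 alone, at 378 and 910 CPM.

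**Figure D2:**
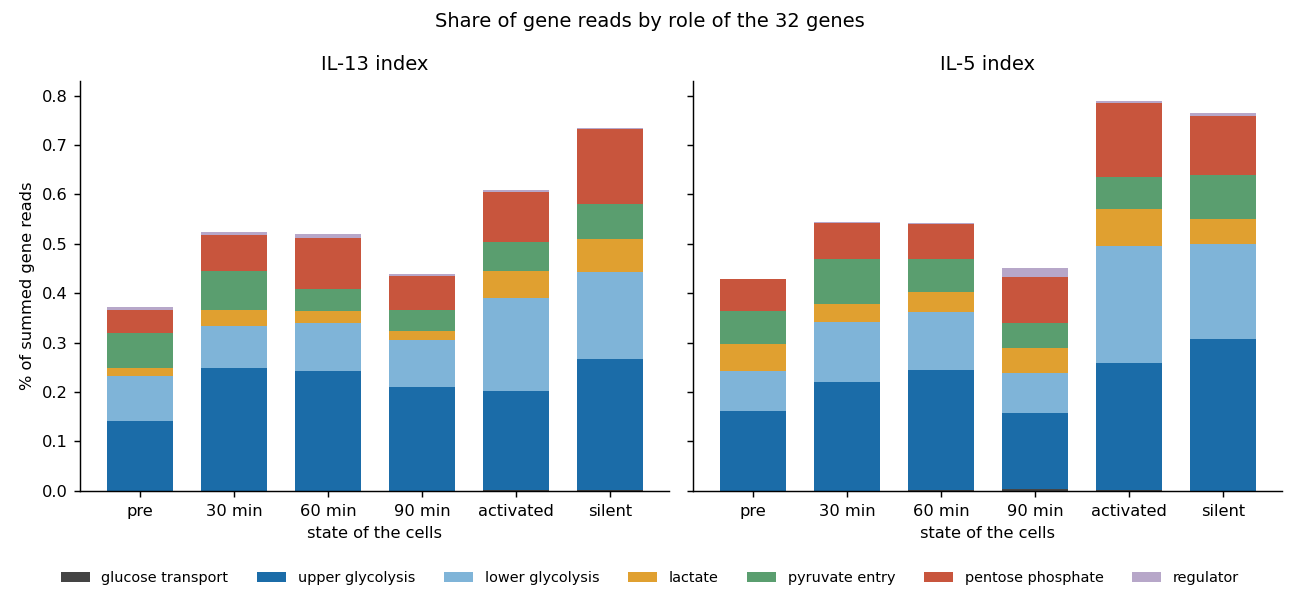
Share of summed gene reads (%, vertical axis) from the 32 genes in the 12 groups, stacked by role of the genes, for the IL-13 index (left) and the IL-5 index (right). The lower glycolysis and pentose phosphate layers are thicker in activated and silent than in pre-stimulation cells, while the pyruvate entry layer of activated cells is not.

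Among the 17 genes that averaged 50 CPM or more, a fold of at least 2 between the summed CPM was counted, beside the same count over all 2658 genes with that mean. A group with under 3 reads was set to a floor of 3 reads, and a fold given as at least a value is against that floor and covers no error of the other group. Such a fold is no lower limit for unstimulated cells in general. For Tpi1, G6pdx, Pgd and Hif1a, the pre-stimulation cells of the other index held reads. IL-13-indexed activated cells were at least 2-fold above pre-stimulation cells in 8 of the 17 genes (47.1%, against 35% of all genes), which were Tpi1, Gapdh, Pgam1, Pkm, Ldha, G6pdx, Pgls and Pgd, and at least 2-fold below in 1, Ldhb (all genes 23.6%). Activated IL-5-indexed cells were above in 9 (52.9%, against 36.2%), which were Tpi1, Gapdh, Pgam1, Pkm, Ldha, Hif1a, Mpc1, G6pdx and Pgd, and below in 1, Ldhb (24.5%). The median log2 ratio of the 17 genes was 0.55 and 1.29, beside 0.28 and 0.23 over all genes. With IL-13, leaving out activated cell 2, 5, 6, 8 or 10 or pre-stimulation cell 1 or 5 gave 2 genes below in place of 1. Levels often rested on 1 cell. Without the cell that gave most of a gene's reads, the level was over 1.5 times lower in 20 of the 30 pre-stimulation values of the 17 genes with a read, in 28 of 100 at 30 to 90 min, in 5 of 34 in activated and in 7 of 33 in silent cells.

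Silent cells were above pre-stimulation cells in 9 genes of the IL-13 index (52.9%, against 33.9%), namely Aldoa, Tpi1, Pgam1, Pkm, Ldha, Ldhb, G6pdx, Pgls and Pgd, and below in 0 (17.9%), with a median log2 ratio of 1.14 beside 0.26. Ldhb averaged 45.4 CPM over the other 11 groups and reached 50 CPM only through these silent cells, and without it 8 of 16 genes were above, with a median of 1.01. Leaving out silent cell 1 or 10, or pre-stimulation cell 1, 3, 4 or 5, gave 1 below. With IL-5 as the index they were above in 9 (52.9%, against 35.3%), namely Hk2, Tpi1, Gapdh, Pgam1, Pkm, Hif1a, Mpc1, G6pdx and Pgd, and below in 1, Ldhb (21.1%), with a median of 1.10 beside 0.27.

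At 30 min the counts were near those over all genes. In the IL-13 index 5 genes were above pre-stimulation cells (29.4%, against 32.1%), Aldoa, Pgam1, Ldhb, G6pdx and Pgls, and 2 below, Hk2 and Pgd (all genes 23.3%), with a median of 0.42 beside 0.05. Without cell 9 of the 30 min group 2 genes were above, and without its cell 5 or pre-stimulation cell 4 there were 3. Without pre-stimulation cell 3 or 5, 1 was below. In the IL-5 index 7 genes were above (41.2%, against 36.2%), Tpi1, Pgam1, Pkm, Hif1a, Mpc1, G6pdx and Pgd, and 2 below, Gpi1 and Ldhb (20%), with a median of 0.44 beside 0.24. Without pre-stimulation cell 2, 11 were above.

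Few of the 17 genes were 2-fold apart between activated and silent cells. With IL-13 as the index 0 were above (all genes 19.8%) and 2 below, Gpi1 and Ldhb (23.6%), or 1 of 16 without Ldhb, which reached 50 CPM only through the silent cells of that index. The median was -0.23 beside -0.01. Without activated cell 7, 5 were below, and without silent cell 1, 6 or 10, 1 was above. With IL-5 as the index 1 was above, Ldhb (14.7%), and 1 below, Pgd (18.5%), with a median of 0.28 beside -0.07. Each of these counts of 1 became 0 without activated cell 4, and the lower count also without activated cell 8 or 10 or silent cell 2. The higher count was 2 without activated cell 1 or 8 or silent cell 1, 3 or 4, and 3 without activated cell 5 or 11 or silent cell 5 or 8.

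Activated over 30 min cells gave 7 genes above in the IL-13 index (41.2%, against 26.5%), Hk2, Tpi1, Gapdh, Pgam1, Pkm, Ldha and Pgd, and 2 below, Gpi1 and Ldhb (22.9%), with a median of 0.62 beside 0.20. The IL-5 index gave 6 above (35.3%, against 16.7%), Gpi1, Tpi1, Gapdh, Eno1, Ldha and Taldo1, and 1 below, Ldhb (21.8%), with a median of 0.81 beside -0.00. The lower count was 1 without activated cell 11 or 30 min cell 2, 3, 8 or 9 of the IL-13 index. With IL-5 it was 2 without activated cell 2 or 30 min cell 5, and 0 without 30 min cell 1.

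**Figure D3:**
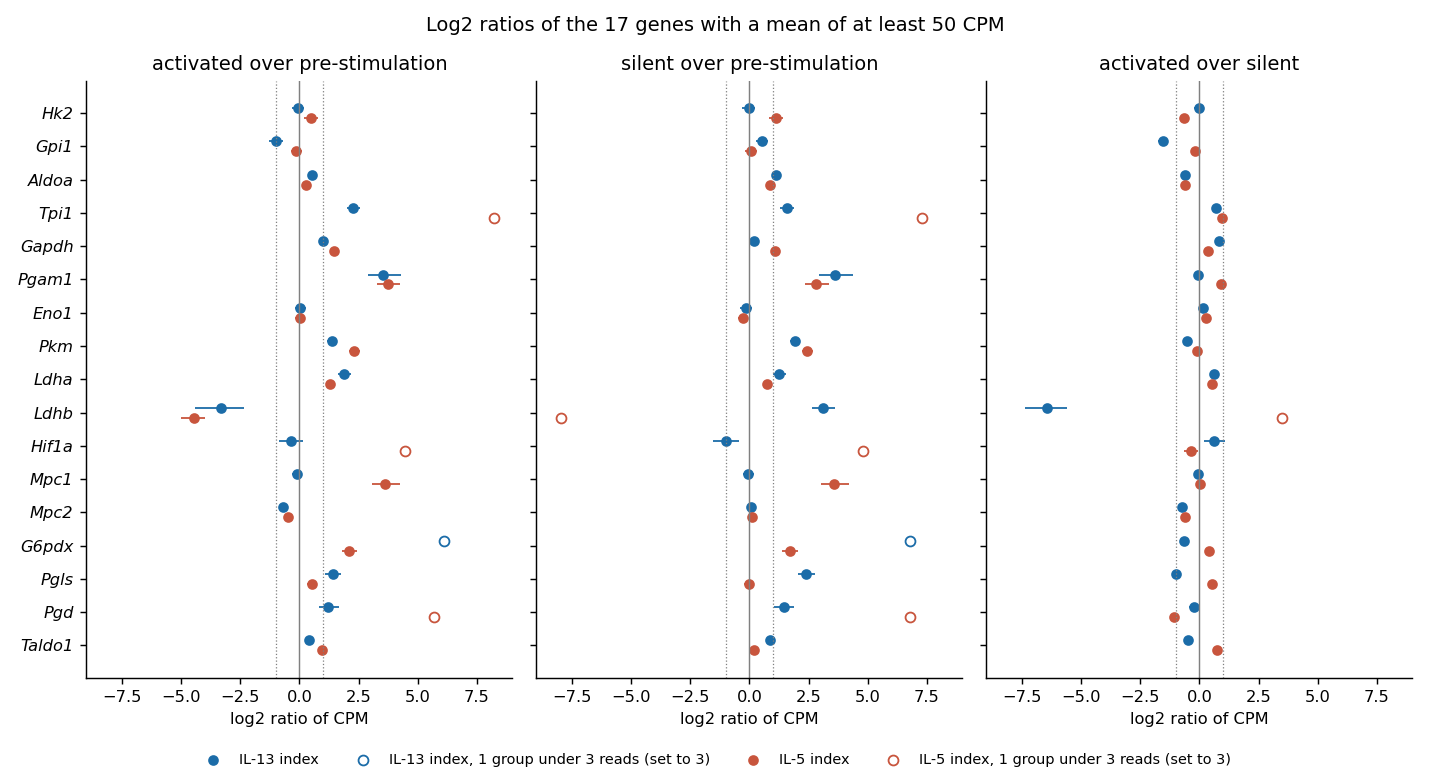
Log2 ratio of CPM (horizontal axis) for the 17 genes with a mean of at least 50 CPM, in activated over pre-stimulation, silent over pre-stimulation and activated over silent cells, for the IL-13 index (blue) and the IL-5 index (red). Bars are 95% counting intervals, open circles mark a group under 3 reads that was set to 3, and dotted lines mark a fold of 2. Most points of the first and second panels lie right of 0, with Ldhb of activated cells far left of it, and the third panel has points on both sides of 0, with Ldhb of the IL-13 index furthest left, at -6.42.

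The glucose carriers Slc2a1 (GLUT1) and Slc2a3 (GLUT3) were low throughout. Slc2a1 had 0 reads in both pre-stimulation groups, in all 3 transition groups of the IL-13 index and at 30 min after IL-5 onset, and the floor of 3 reads stands for 3.11 CPM in the IL-13 and 2.475 CPM in the IL-5 pre-stimulation cells. Slc2a1 reached 12.2 and 13.2 CPM in activated and IL-13-indexed silent cells and 20.8, 39.4, 13.9 and 5.87 CPM in the 60 min, 90 min, activated and silent groups of the IL-5 index, from 15 of the 120 cells. All reads of both silent groups came from 1 cell each, and without its leading cell the IL-13-indexed activated group was at 2.42 CPM and the 90 min group at 15.4 CPM. Slc2a3 ran from 0 to 12.9 CPM, from 28 cells, and that highest level, in IL-5-indexed activated cells, was 1.47 CPM without 1 cell.

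Hexokinases phosphorylate glucose, and Hk2, the inducible form, ran from 33.2 CPM (30 min, IL-13) to 346 CPM (60 min, IL-5). Its reads came from few cells in some groups, and in the IL-5 index silent over pre-stimulation cells went from 1.14 to 0.24 without silent cell 9. Pre-stimulation cell 3 of the IL-13 index gave 96.2% of that group's 156 reads, and without it the log2 ratio of 30 min over pre-stimulation cells went from -2.28 to 2.15, while all 11 activated cells of that index had a read, at 4.83 to 304.5 CPM. Hk1, the housekeeping form, was read in 15 cells and held 140 CPM in pre-stimulation cells of the IL-13 index, all from 1 cell at 800 CPM, and at most 39.6 CPM in the other groups. Hk2 made up 53.6% of the reads of both hexokinases before stimulation, 97.4% in activated and 86.8% in IL-13-indexed silent cells, and 69.6%, 89.8% and 94.1% of those of the IL-5 index.

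Gpi1, which turns glucose 6-phosphate into fructose 6-phosphate, had 163 CPM before stimulation, 83.0 CPM for activated and 238 CPM for IL-13-indexed silent cells, and 174, 159 and 182 CPM in the IL-5 index. Activated over silent cells gave a log2 ratio of -1.52 (-1.73 to -1.31) with IL-13 and -0.20 (-0.37 to -0.03) with IL-5. At 30 min after IL-5 onset Gpi1 was at 24.5 CPM, and at 90 min after IL-13 onset at 5.40 CPM, each from 1 cell. Without pre-stimulation cell 2 of the IL-5 index, 30 min over pre-stimulation went from -2.83 to -1.20, and activated over pre-stimulation from -0.13 to 1.499. The phosphofructokinases, which commit the sugar to glycolysis, were low, with Pfkp at 0 to 104 CPM by group from 30 cells, Pfkl at 0 to 26.1 CPM from 26 cells and Pfkm at 0 to 18.1 CPM from 3 cells. Pfkfb3, which makes their activator fructose 2,6-bisphosphate, was read in 2 cells, 1 of which, a pre-stimulation cell of the IL-5 index, gave 90.5% of its reads. Aldoc, the brain-type aldolase, was read in 1 silent cell.

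Aldoa was read in 119 of the 120 cells and its highest groups were not the activated ones. It had 821 CPM (765 to 880) in pre-stimulation cells of the IL-13 index, then 1975, 1944 and 1603 CPM at 30, 60 and 90 min, 1204 CPM (1166 to 1242) for activated and 1813 CPM for silent cells. The IL-5-indexed cells had 1209 CPM (1148 to 1273), 1861, 1646, 1184, 1453 and 2244 CPM in that order. In both indexes Aldoa was thus lower in activated than in 30 min and silent cells, with activated over silent at -0.59 (-0.65 to -0.53) and -0.63 (-0.68 to -0.58). The 5 pre-stimulation cells of the IL-13 index held 422.5, 427, 929, 207 and 1982 CPM and those of the IL-5 index 2159, 2088, 736, 1166 and 4.67 CPM. Cell 5 gave 54.0% of the reads of the first of these groups, and without it 30 min over pre-stimulation went from 1.27 to 2.02 in that index.

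Tpi1, triose phosphate isomerase, had 109 CPM in pre-stimulation cells of the IL-13 index, from 2 of the 5 cells at 224 and 232 CPM, then 168, 85.2 and 198 CPM at 30, 60 and 90 min, 530 CPM (505 to 556) for activated and 330 CPM (308 to 352) for silent cells. In the IL-5 index it had 0 reads in the 5 pre-stimulation cells, then 175, 253, 135, 745 (717 to 773) and 386.5 CPM (365 to 409). Activated cells were the highest group in both indexes. Their lowest, median and highest cells held 0, 497 and 938 CPM with IL-13 and 27.4, 579 and 1945 CPM with IL-5, where all 11 cells were above the pre-stimulation cells, all at 0. Activated over pre-stimulation cells was 4.87-fold, a log2 ratio of 2.28 (2.00 to 2.58), with IL-13, and at least 301-fold against the floor of 3 reads over the group in the IL-5 index. Over silent cells the log2 ratio was 0.68 (0.57 to 0.80) and 0.95 (0.85 to 1.04), and on the first date of the IL-5 index 0.10. Cell 4 gave 52.4% of the 30 min reads of the IL-13 index, and without it 30 min over pre-stimulation went from 0.63 to -0.33. Without the cycling cell of the IL-13 index the log2 ratios over pre-stimulation cells were 1.27 at 30 min, 2.93 for activated and 2.24 for silent cells.

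**Figure D4:**
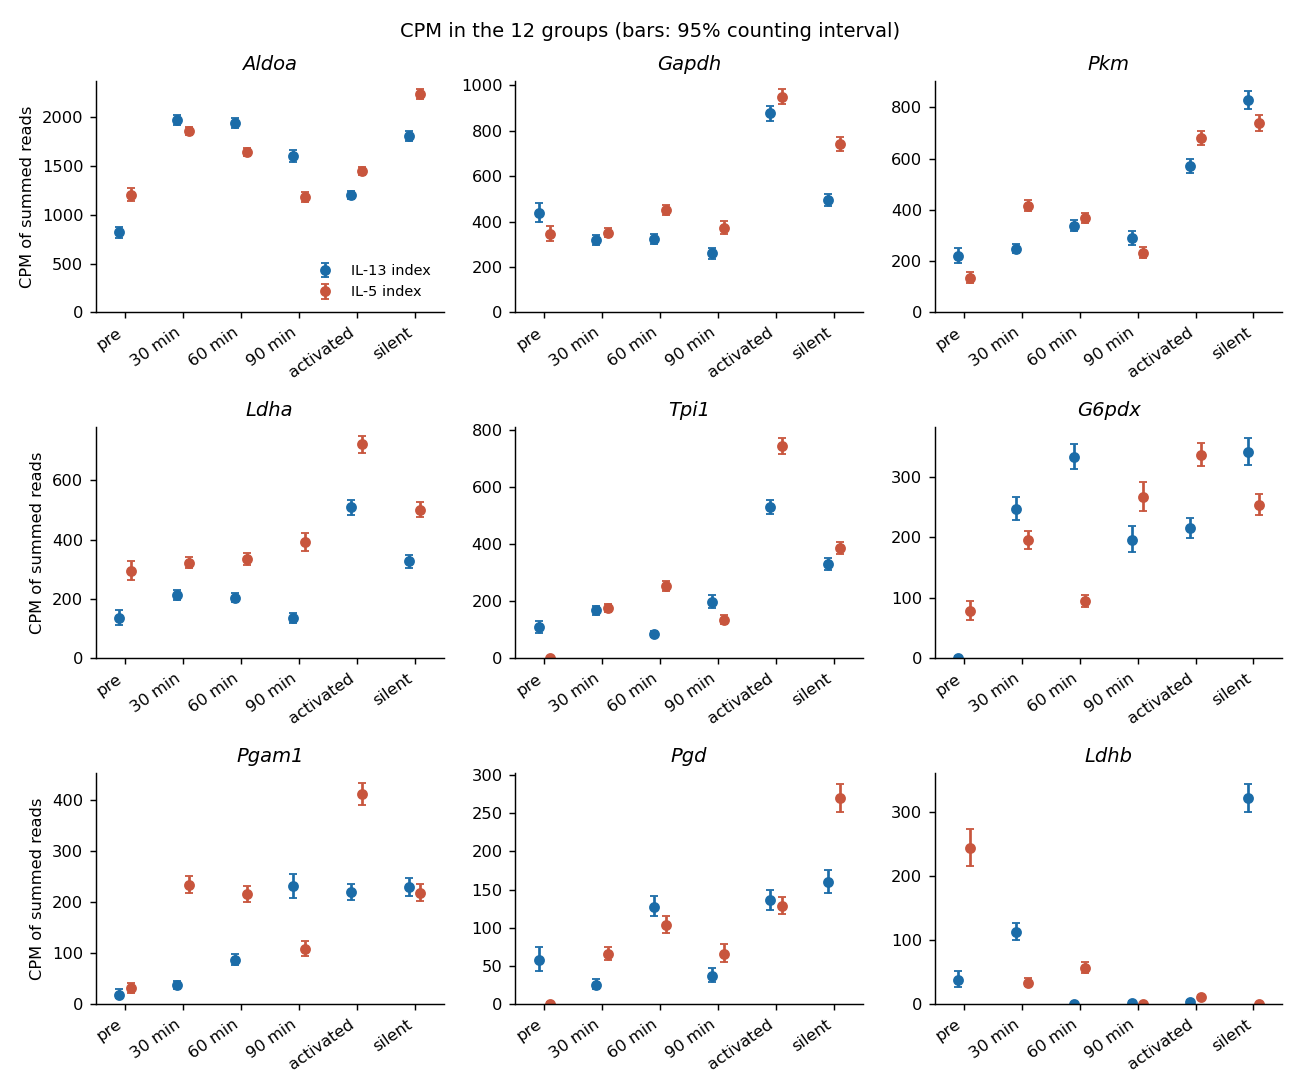
CPM of the summed reads (vertical axis) of Aldoa and the 8 genes given in full, in the 6 states (horizontal axis) of the IL-13 index (blue) and the IL-5 index (red). Bars are 95% counting intervals. Gapdh, Pkm, Ldha and Tpi1 are higher in activated than in pre-stimulation cells of both indexes, Aldoa is highest at 30 min or in silent cells, and Ldhb is at 112, 322 and 243 CPM in 3 groups and lower in the others.

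Gapdh, glyceraldehyde 3-phosphate dehydrogenase and often a reference gene, had 438 CPM (397 to 481) in pre-stimulation cells of the IL-13 index, 319, 323 and 260 CPM at 30, 60 and 90 min, 877 CPM (845 to 910) for activated and 494 CPM (468 to 522) for silent cells. The IL-5-indexed cells had 346.5 CPM (314 to 381), 350, 452, 373, 950 CPM (919 to 981) and 742 CPM (712 to 774). Its 5 pre-stimulation cells held 410, 332, 838, 130 and 486 CPM, and 465, 228, 412, 249 and 495 CPM, and its activated cells 382, 828 and 1583 CPM, and 427, 911 and 1754 CPM (lowest, median and highest). Activated over pre-stimulation was 2.00-fold (log2 1.00, 0.85 to 1.15) and 2.74-fold (log2 1.46, 1.31 to 1.60), and activated over 30 min cells 2.75-fold and 2.71-fold. With IL-5, activated over silent was log2 0.36, with -0.26 and 1.07 on the first and second date. With IL-13 the fold lay at the limit of 2, between log2 values of 0.80 and 1.304 on leaving out any 1 cell and at 0.70 on the first date. Of the 50-base windows in the last 500 bases of its transcripts, 90.5% stood in transcripts of other genes as well, 138 of them in all. Reads that matched several places were not counted, so the Gapdh level is uncertain.

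Pgam1, phosphoglycerate mutase, was near 0 before stimulation in most cells. It had 18.7 CPM (11.1 to 29.5) in pre-stimulation cells of the IL-13 index, all from 1 cell at 73.1 CPM, then 37.4, 86.6 and 231 CPM at 30, 60 and 90 min, 219 CPM (203 to 236) for activated and 228 CPM (210 to 247) for silent cells. With IL-5 as the index it had 30.5 CPM (21.5 to 42.1), from cells at 136 and 4.67 CPM and 3 cells at 0, then 234, 215, 108, 410.5 (390 to 432) and 217 CPM (201 to 234). The transition groups differed between the indexes, with 37.4 CPM at 30 min after IL-13 onset and 234 CPM after IL-5 onset, on different dates. Activated over pre-stimulation was 11.7-fold (log2 3.55, 2.88 to 4.32) and 13.45-fold (log2 3.75, 3.28 to 4.26), and silent over pre-stimulation 12.2-fold and 7.12-fold. Its activated cells held 0, 180 and 436 CPM, and 3.04, 371 and 798 CPM (lowest, median and highest), with 9 of 11 and 10 of 11 above the highest pre-stimulation cell. Without the pre-stimulation cell that held most reads, the log2 ratio of activated over pre-stimulation was 5.71 and 7.02 against the floor. In the IL-13 index that cell is the one with high cycling-cell genes, and without it the ratios over pre-stimulation cells were 3.16 at 30 min and 5.77 for silent cells.

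Eno1, enolase, had 190 CPM before stimulation, 195 CPM for activated and 173 CPM for IL-13-indexed silent cells and 235, 238 and 196 CPM in the IL-5 index. Of the 190 CPM, most came from the cycling cell, and without it that group was at 78.0 CPM and the log2 ratio over it went from 0.04 to 1.32 for activated and from -0.13 to 1.15 for silent cells. The lowest group of each index was 121 CPM at 30 min after IL-13 onset and 76.0 CPM at 90 min after IL-5 onset. Of its end windows 75.2% were shared with other transcripts, foremost Eno1b, so its level is uncertain too. Pgk1, phosphoglycerate kinase, had 8.25 to 49.8 CPM by group and was read in 79 cells, including 10 of 11 activated cells of each index, or 9 of 11 with each cell thinned to 100000 gene reads, and 1 and 2 of the 5 pre-stimulation cells. Bpgm, which makes 2,3-bisphosphoglycerate, was read in 15 cells at 0 to 105 CPM.

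Pkm, pyruvate kinase, was higher in both late states than before stimulation. It had 221 CPM (192 to 253) in pre-stimulation cells of the IL-13 index, 248, 338 and 289 CPM at 30, 60 and 90 min, 570 CPM (544 to 596) for activated and 829 CPM (795 to 865) for silent cells. The IL-5-indexed cells had 136 CPM (116 to 158), 416, 368, 232, 679 CPM (653 to 706) and 738 CPM (708 to 769). Pre-stimulation cells held 337, 0, 504, 231 and 37.0 CPM, and 127.5, 71.8, 79.3, 222 and 187 CPM, and activated cells 4.83, 508 and 1273 CPM, and 337.5, 620 and 1133 CPM (lowest, median and highest). All 11 activated cells of the IL-5 index were above its highest pre-stimulation cell (the gene is among the 36.2% of all genes at least 2-fold higher there), and 6 of 11 in the IL-13 index. Activated over pre-stimulation was 2.58-fold (log2 1.37, 1.16 to 1.58) and 4.99-fold (log2 2.32, 2.09 to 2.56). A single silent cell of the IL-13 index, cell 6, held 3487 CPM and 48.15% of that group's reads, and without it silent over pre-stimulation went from 1.91 to 1.14 and activated over silent from -0.54 to 0.23. In the IL-5 index silent cell 2 held 2670 CPM and 42.3% of the reads, and without it the silent level was 482 CPM, silent over pre-stimulation went from 2.44 to 1.825 and activated over silent from -0.12 to 0.49. Which of both late states is higher thus rests on 1 cell in each index.

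Ldha, the main lactate dehydrogenase subunit of glycolytic cells, was highest in activated cells of both indexes. It had 136 CPM (114 to 161) in pre-stimulation cells of the IL-13 index, 213, 204 and 135 CPM at 30, 60 and 90 min, 509 CPM (484 to 534) for activated and 327 CPM (306 to 350) for silent cells. The IL-5-indexed cells had 294.5 CPM (265 to 327), 322, 334, 391, 721 CPM (694 to 749) and 501 CPM (476 to 526). All 11 IL-13-indexed activated cells, at 274 to 1303 CPM, were above the 5 pre-stimulation cells at 118, 94.8, 200, 130 and 144 CPM (the gene is among the 35% of all genes at least 2-fold higher there). In the IL-5 index 6 of 11 activated cells, at 237 to 1634 CPM, were above the highest of the 5 at 157.5, 506, 378, 81.8 and 266 CPM. Activated over pre-stimulation was 3.74-fold (log2 1.91, 1.65 to 2.17) and 2.45-fold (log2 1.29, 1.13 to 1.46), and activated over silent log2 0.64 (0.52 to 0.76) and 0.53 (0.43 to 0.62), with -0.13 and 1.46 on the first and second date of the IL-5 index.

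Ldhb, the subunit that favours the turn of lactate to pyruvate, was read in 19 of the 120 cells. It had 37.3 CPM in pre-stimulation cells of the IL-13 index, all from cell 4 at 213 CPM, then 112, 0 and 1.80 CPM at 30, 60 and 90 min, 3.76 CPM (1.94 to 6.56) for activated and 322 CPM (301 to 344) for silent cells. With IL-5 as the index it had 243 CPM, from cells 3 and 5 at 378 and 910 CPM, then 33.5, 56.5, 0, 11.0 (7.88 to 14.9) and 0 CPM. Silent cells thus differed between the indexes, with a read in 7 of 11 cells for IL-13, 4 of them between 595 and 1037 CPM, and in 0 of 10 for IL-5, and the difference, which cannot be told apart from that of their dates, was not tested. The 112 CPM at 30 min came to 99.3% from cell 9, and without it 30 min over pre-stimulation went from 1.59 to -4.85, with the group set to 3 reads. Activated over silent cells gave a log2 ratio of -6.42 (-7.38 to -5.61) with IL-13, given as a description because these silent cells brought Ldhb over 50 CPM. Activated cells were lower than pre-stimulation cells in both indexes, by log2 ratios of -3.31 (-4.39 to -2.34) and -4.47 (-4.98 to -3.99), which rest on 1 and 2 pre-stimulation cells. Without cell 4 of the IL-13 index the other pre-stimulation cells had 0 reads and the first ratio was -0.00 against the floor of 3 reads, so it rests on that cell. Of its end windows 24.4% were shared with 1 other gene, Gm5514.

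Ldha made up 78.4% of the reads of both lactate dehydrogenase genes before stimulation, 99.3% in activated and 50.4% (48.0 to 52.8%) in IL-13-indexed silent cells. In the IL-5 index these were 54.8%, 98.5% and 100%. The lactate carriers were low, with Slc16a1 (MCT1) at 0 CPM in both pre-stimulation groups and read in 23 cells of the other groups, up to 97.9 CPM from 4 cells at 90 min after IL-5 onset, which was 20.1 CPM without cell 3, and Slc16a3 (MCT4) at up to 11.5 CPM from 6 cells.

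**Figure D5:**
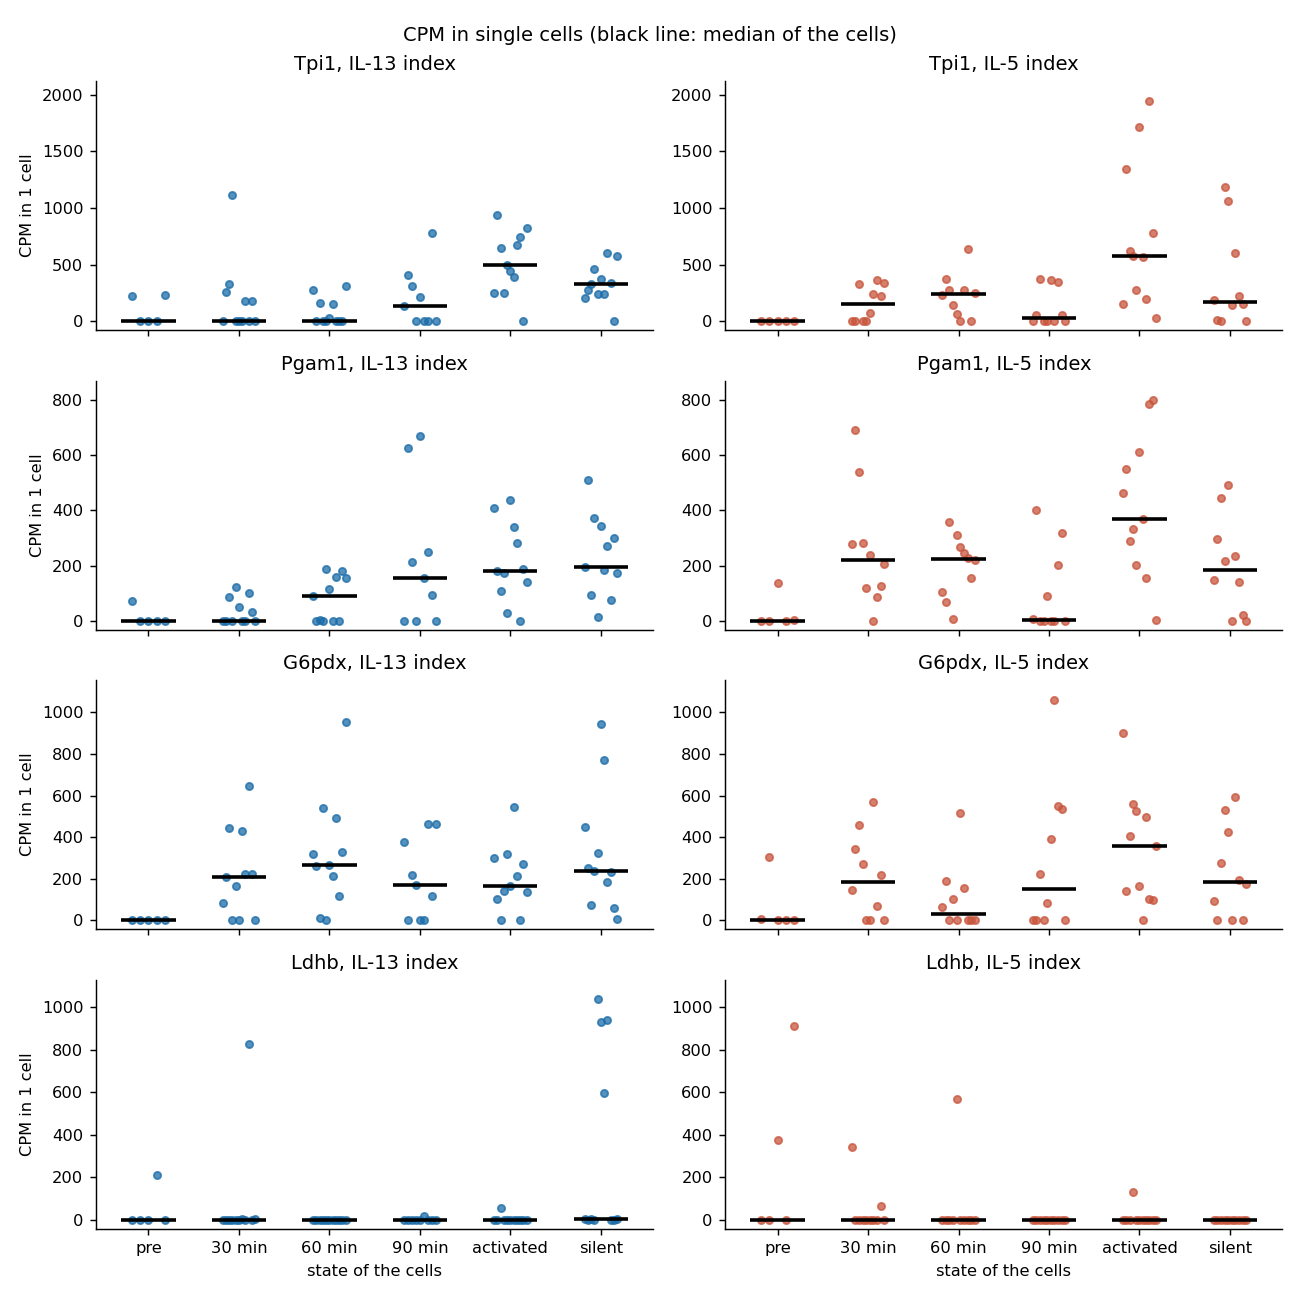
CPM in single cells (vertical axis) of Tpi1, Pgam1, G6pdx and Ldhb by state (horizontal axis), for the IL-13 index (left, blue) and the IL-5 index (right, red). Points are cells and black lines their median. Tpi1, Pgam1 and G6pdx are at 0 in most pre-stimulation cells and above 0 in most activated cells, while Ldhb is at 0 in most cells of all groups but the silent cells with IL-13 as the index, with 4 IL-13-indexed silent cells at 595 CPM or more.

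Of the genes of pyruvate entry, Mpc1 and Mpc2 form the mitochondrial pyruvate carrier. Mpc2 had 436 CPM before stimulation, 269 CPM for activated and 452 CPM for IL-13-indexed silent cells and 511, 366 and 554 CPM in the IL-5 index, so activated cells were below silent cells in both, by log2 ratios of -0.75 (-0.88 to -0.62) and -0.60 (-0.70 to -0.50). Without the leading cell of each, the pre-stimulation levels of Mpc2 were 304 and 289 CPM, the latter below the activated level. Mpc1 had 245, 231 and 238 CPM, and 20.6, 254 and 249 CPM, where the 20.6 CPM came from a single one of the 5 pre-stimulation cells. Activated over pre-stimulation with IL-5 was 3.62 and, without that cell, 6.51 against the floor. Of the end windows of Mpc1, 26.4% were shared with other transcripts. Pdha1, a subunit of pyruvate dehydrogenase, was read in 32 cells at 0 to 70.1 CPM, and Pdk1, a kinase that inhibits that enzyme, in 15 cells at 0 to 88.3 CPM.

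G6pdx, glucose 6-phosphate dehydrogenase and the entry enzyme of the pentose phosphate pathway, was read in 2 of the 10 pre-stimulation cells. It had 0 reads in the 5 pre-stimulation cells of the IL-13 index, then 247, 333 and 196 CPM at 30, 60 and 90 min, 215 CPM (200 to 232) for activated and 342 CPM (320 to 364) for silent cells. With IL-5 as the index it had 77.6 CPM (62.7 to 94.9), nearly all from cell 2 at 303 CPM with cell 1 at 7.50 CPM, then 195, 94.5, 267, 337 (318 to 356) and 254 CPM (236 to 272). Against the floor of 3 reads over the group, 30 min cells of the IL-13 index were at least 79.3-fold higher than pre-stimulation cells, activated cells at least 69.3-fold and silent cells at least 109.8-fold. In the IL-5 index the folds at 30 min, in activated and in silent cells were 2.51, 4.34 and 3.27, and without cell 2 the log2 ratio of activated over pre-stimulation went from 2.12 to 6.67 against the floor. A read was found in 9 of 11 and 10 of 11 activated cells, and their lowest, median and highest cells held 0, 166 and 547 CPM, and 0, 356 and 902 CPM. All 11 IL-13-indexed silent cells, at 7.64 to 944 CPM, were above its pre-stimulation cells (the gene is among the 33.9% of all genes at least 2-fold higher there).

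Pgd, 6-phosphogluconate dehydrogenase, the other NADPH-forming enzyme of the pathway, had 58.1 CPM (43.9 to 75.4) in pre-stimulation cells of the IL-13 index, from cells 1 and 5 at 20.3 and 236 CPM, then 25.4, 128 and 37.2 CPM at 30, 60 and 90 min, 136 CPM (124 to 150) for activated and 160 CPM (145 to 176) for silent cells. With IL-5 as the index it had 0 reads in the 5 pre-stimulation cells, then 66.2, 104, 66.2, 129 (118 to 141) and 270 CPM (252 to 289). Activated over pre-stimulation was 2.35-fold (log2 1.23, 0.83 to 1.66) and at least 52.1-fold against the floor. Without pre-stimulation cell 5, which gave 91.1% of its group's reads, the first log2 ratio was 4.35 and that of silent over pre-stimulation cells 4.58. A read was found in 9 of 11 activated cells of each index, at a median of 114.5 and 143 CPM. Silent cell 6 of the IL-13 index gave 65.8% of that group's reads, and without it silent over pre-stimulation went from 1.46 to 0.09. On the first date alone it was -0.27.

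Pgls, the lactonase between these steps, had 77.8, 207 and 413 CPM in pre-stimulation, activated and IL-13-indexed silent cells and 206, 297 and 203 CPM in the IL-5 index, with all reads of the first group from cell 5 and 99.2% of those of the IL-5 pre-stimulation cells from cell 2. Without these cells the log2 ratio of activated over pre-stimulation went from 1.41 to 5.69 and from 0.53 to 6.49, against the floor. Taldo1, transaldolase of the non-oxidative branch, was read in 106 cells, with 315, 416 and 581 CPM and 369, 714 and 422 CPM. Without the leading cell of each, its pre-stimulation levels were 183.5 and 177.3 CPM. Its 714 CPM in activated cells of the IL-5 index came to 42.3% from 1 cell at 2815 CPM, and without it activated over 30 min went from 1.40 to 0.77. Tkt, transketolase, had 0 to 53.5 CPM by group and was read in 67 cells, among them all 11 IL-13-indexed activated cells and 10 of 11 of the IL-5 index, against 2 of 5 and 0 of 5 pre-stimulation cells. With each cell thinned to 100000 gene reads these were 9 of 11, 7 of 11, 2 of 5 and 0 of 5, and more of all genes were read in activated cells too.

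Hif1a had 51.9 CPM before stimulation, 69.5, 87.2 and 49.2 CPM at 30, 60 and 90 min, 40.4 CPM for activated and 26.1 CPM for IL-13-indexed silent cells. Without the leading cell of each group, the pre-stimulation, activated and silent levels of that index were 6.285, 25.65 and 12.9 CPM. The IL-5 index had 0 reads, 27.6, 22.2, 164, 54.1 and 69.2 CPM. Hif1a reached 50 CPM only through the 164 CPM at 90 min, with a mean of 45.2 CPM over the other 11 groups. Of the 164 CPM at 90 min, 56.0% came from 1 cell at 913 CPM. Against the floor, activated and silent IL-5-indexed cells were at least 21.9-fold and 27.9-fold higher than pre-stimulation cells, and without 1 cell each they were at 32.1 and 34.0 CPM.

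More of the 32 genes were read per cell in activated cells. With each cell thinned at random to 100000 gene reads, the median number of the 32 genes with a read was 11 before stimulation, 13, 14 and 12.5 at 30, 60 and 90 min, 19 in activated and 16 in IL-13-indexed silent cells, and 11, 14, 15, 14, 19 and 17 with IL-5. Unthinned medians were 11 and 20 in pre-stimulation and IL-13-indexed activated cells and 12 and 20 in the IL-5 index. The number of all genes with a read moved in the same way, with thinned medians of 1918 and 2924 in pre-stimulation and IL-13-indexed activated cells and 2236 and 2999 in the IL-5 index, and its part in the higher number of members was not tested. Of the cells with the highest share, silent cell 2 of the IL-5 index, at 1.35%, was the highest of its group for Gpi1, Aldoa, Gapdh, Pkm, Ldha and Pgd, activated cell 9 of the same index, at 1.22%, for Aldoa, Tpi1, Gapdh, Eno1 and Ldha, and silent cell 6 of the IL-13 index, at 1.35%, for Pkm, G6pdx and Pgd.

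Other genes of these pathways were sparse. Of 22 further glycolytic isozymes and regulators, 13 had 0 reads in every cell and 0 reached a mean of 50 CPM, with Slc2a6 the highest at 30.1 CPM. Of 13 genes of the hypoxia-inducible factor pathway and its known targets (Vegfa, Bnip3 and others), 0 reached it either, with Egln2 the highest at 39.6 CPM. Of 10 further pyruvate dehydrogenase genes 2 reached it, Pdhb and Dld, and in activated over pre-stimulation cells Dld was at least 2-fold higher in the IL-13 index and both were in the IL-5 index, where 35% and 36.2% of all genes were. With IL-13 Pdhb was at -0.54 in activated and at -1.35 in silent over pre-stimulation cells, or 0.90 and 0.10 without pre-stimulation cell 5. Of 13 gluconeogenesis and glycogen genes 2 reached it, Pck2 and Ugp2. Ugp2, which makes the UDP-glucose used for glycogen, had 0 reads in pre-stimulation cells, 104 CPM in activated and 38.2 CPM in IL-13-indexed silent cells, and 8.25, 37.8 and 87.75 CPM in the IL-5 index. Of 8 other pentose phosphate genes 1 reached it, Prps1, which makes phosphoribosyl pyrophosphate, with 8.29 CPM in pre-stimulation cells from 8 reads, 70.5 CPM in activated and 0 reads in IL-13-indexed silent cells, and with 0 reads, 148 and 40.8 CPM in the IL-5 index. Over all states Ugp2 was read in 47 cells and Prps1 in 45.

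Of 5 regulators of these pathways Myc, Rheb and Txnip reached a mean of 50 CPM, and Mtor and Rptor did not. Myc, a transcription factor known to induce glycolytic genes, had 20.7 CPM before stimulation, 352, 436 and 133 CPM at 30, 60 and 90 min, 188.5 CPM for activated and 181 CPM for IL-13-indexed silent cells, and 105, 351, 266, 234.5, 326 and 124 CPM in the IL-5 index. It was thus highest at 60 min in the first and at 30 min in the second. Txnip, which holds back glucose uptake, had 157, 11.2, 109, 53.4, 93.6 and 52.9 CPM, and 253, 49.0, 70.8, 36.6, 10.7 and 14.0 CPM in the same order, and so was highest before stimulation in both indexes. Rheb, an activator of the growth kinase mTOR, had 104, 183, 143, 133, 55.1 and 64.2 CPM, and 42.1, 166, 146, 182, 95.9 and 33.3 CPM. Over all states Myc was read in 82 cells, Rheb in 90 and Txnip in 35, and levels without single cells are not given for these 3 genes. Of 8 cycling-cell genes Stmn1 and Tyms reached the limit, and Stmn1 stood at 1570 CPM in pre-stimulation cells of the IL-13 index and at most 9.65 CPM elsewhere. Nearly all reads of the 8 genes in that group came from 1 cell, the one at 10986 CPM of cycling-cell genes.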

How the data were processed

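Libraries were made from single cells with a SMART-Seq v4 3′ kit and sequenced as paired-end reads on a MiSeq. The authors aligned the reads with TopHat to GRCm38 and counted them per gene with HTSeq, and deposited raw counts of reads (not of molecules), with 1 table per cell; versions, annotation release and strand setting are not given in the sources used here. Of all tallied alignments 28.67% were not unique and were not counted in genes. The 5 HTSeq summary entries were left out of totals.

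Counts were summed per group and divided by the summed gene reads. Levels carry exact Poisson intervals and ratios exact binomial (Clopper-Pearson) intervals of 95%, for counting error only; groups under 3 reads were set to 3. With 1 sample a group no test was run. Genes given in full had a mean of at least 50 CPM and a fold of at least 2 in the same direction in both indexes in at least 1 of 5 comparisons (at most 14; 8 met this). The 32 genes and the other lists were chosen with earlier results of these data known. Leaving out each cell, dates, scalings by TMM (edgeR 4.0.16) and DESeq2 1.42.0 size factors, and other limits were tried. The ratio and interval code was tested on simulated data. Python 3.11.15, numpy 2.4.6, scipy 1.17.1 and pandas 2.3.3 were used.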

Additional observations from a re-analysis of the deposited data

Results flagged for a closer look

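In the groups of 5 pre-stimulation cells, 5 of 15 values tried had a highest cell far from the others, with a gap to the next cell above 0.71 of the group's range, a limit that chance passes in about 1 of 20 groups of normally distributed values. These values are mostly 0, and a gene read in a single cell passes the limit by construction, so that rate does not hold here. G6pdx stood at 303.3 CPM in 1 pre-stimulation cell of the IL-5 index. Pgam1 stood at 73.13 CPM in 1 such cell of the IL-13 index and at 136.0 CPM in 1 of the IL-5 index. Pgd stood at 236.1 CPM and Ldhb at 213.3 CPM in 1 cell each of the IL-13 index. In each of these groups the other 4 cells were at 0 or at most at 20.3 CPM, and ratios without the cell are given with these genes above.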

How the results depend on the processing

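The log2 ratio of the 32 genes together moved by more than its counting interval in these cases, and the cause was not tested. Leaving out Aldoa was not among these settings, and ratios and shares without it are given above. TMM factors gave 0.71 for 30 min over pre-stimulation, 0.94 for activated over pre-stimulation, 1.04 for silent over pre-stimulation and -0.091 for activated over silent with IL-13, and 0.70 for 30 min over pre-stimulation, 1.35 for activated over pre-stimulation, 1.22 for silent over pre-stimulation, 0.14 for activated over silent and 0.65 for activated over 30 min with IL-5. DESeq2 size factors gave 0.60 for 30 min over pre-stimulation, 0.64 for activated over pre-stimulation, 0.85 for silent over pre-stimulation, -0.22 for activated over silent and 0.033 for activated over 30 min with IL-13, and 0.96 for activated over pre-stimulation, 0.14 for activated over silent and 0.58 for activated over 30 min with IL-5. The first date alone gave 0.44 for 30 min over pre-stimulation, 0.80 for silent over pre-stimulation and -0.12 for activated over silent with IL-13, and 0.41 for 30 min over pre-stimulation, 0.95 for activated over pre-stimulation, 1.03 for silent over pre-stimulation and -0.076 for activated over silent (direction turned) with IL-5. Pre-stimulation cells of both indexes together gave 0.38 for 30 min over pre-stimulation, 0.59 for activated over pre-stimulation and 0.86 for silent over pre-stimulation with IL-13, and 0.43 for 30 min over pre-stimulation, 0.97 for activated over pre-stimulation and 0.92 for silent over pre-stimulation with IL-5. Leaving out Gapdh gave 0.58 for 30 min over pre-stimulation, 1.06 for silent over pre-stimulation, -0.40 for activated over silent and 0.081 for activated over 30 min with IL-13, and 0.82 for activated over pre-stimulation, 0.0077 for activated over silent and 0.45 for activated over 30 min with IL-5. The mean of the cells gave -0.23 for activated over silent with IL-13, and 0.78 for silent over pre-stimulation and 0.095 for activated over silent with IL-5.

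Leaving out each cell in turn gave ranges of 0.39 to 0.63 for 30 min over pre-stimulation with IL-13, 0.60 to 0.84 for activated over pre-stimulation with IL-13, 0.82 to 1.12 for silent over pre-stimulation with IL-13, -0.38 to -0.11 for activated over silent with IL-13, 0.17 to 0.27 for activated over 30 min with IL-13, 0.21 to 0.57 for 30 min over pre-stimulation with IL-5, 0.75 to 1.10 for activated over pre-stimulation with IL-5, 0.68 to 1.06 for silent over pre-stimulation with IL-5, -0.024 to 0.20 for activated over silent with IL-5 and 0.47 to 0.63 for activated over 30 min with IL-5.

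The number of the genes at least 2-fold higher moved by over 1.5 times as follows. TMM factors gave 1 for activated over silent with IL-13, and 3 for activated over silent with IL-5. DESeq2 size factors gave 3 for activated over silent with IL-5. The first date alone gave 2 for activated over silent with IL-13, and 4 for activated over silent with IL-5. The mean of the cells gave 3 for activated over silent with IL-5. A minimum of 10 CPM gave 13 for activated over pre-stimulation, 3 for activated over silent and 11 for activated over 30 min with IL-13, and 11 for 30 min over pre-stimulation and 5 for activated over silent with IL-5. No minimum gave 14 for activated over pre-stimulation, 15 for silent over pre-stimulation, 5 for activated over silent and 14 for activated over 30 min with IL-13, and 11 for 30 min over pre-stimulation, 16 for activated over pre-stimulation, 14 for silent over pre-stimulation, 7 for activated over silent and 12 for activated over 30 min with IL-5. A fold of 1.5 gave 8 for 30 min over pre-stimulation and 4 for activated over silent with IL-13, and 4 for activated over silent and 12 for activated over 30 min with IL-5. The number at least 2-fold lower moved as follows, where limits under 50 CPM or a smaller fold take in more genes by construction. TMM factors gave 1 for 30 min over pre-stimulation with IL-13, and 0 for activated over silent with IL-5. DESeq2 size factors gave 2 for activated over pre-stimulation and 1 for silent over pre-stimulation with IL-13, and 0 for activated over silent with IL-5. The first date alone gave 1 for 30 min over pre-stimulation and 1 for activated over 30 min with IL-13, and 2 for activated over 30 min with IL-5. Pre-stimulation cells of both indexes together gave 1 for 30 min over pre-stimulation and 2 for activated over pre-stimulation with IL-13. The mean of the cells gave 1 for 30 min over pre-stimulation, 2 for activated over pre-stimulation and 1 for silent over pre-stimulation with IL-13, and 0 for activated over silent with IL-5. A minimum of 10 CPM gave 6 for 30 min over pre-stimulation, 3 for activated over pre-stimulation, 3 for silent over pre-stimulation, 4 for activated over silent and 5 for activated over 30 min with IL-13, and 4 for 30 min over pre-stimulation, 4 for activated over pre-stimulation, 4 for silent over pre-stimulation, 3 for activated over silent and 3 for activated over 30 min with IL-5. No minimum gave 8 for 30 min over pre-stimulation, 3 for activated over pre-stimulation, 4 for silent over pre-stimulation, 6 for activated over silent and 5 for activated over 30 min with IL-13, and 6 for 30 min over pre-stimulation, 5 for activated over pre-stimulation, 6 for silent over pre-stimulation, 4 for activated over silent and 3 for activated over 30 min with IL-5. A fold of 1.5 gave 3 for activated over pre-stimulation, 1 for silent over pre-stimulation, 6 for activated over silent and 6 for activated over 30 min with IL-13, and 4 for activated over silent and 2 for activated over 30 min with IL-5. Leaving out the cycling pre-stimulation cell gave 2 for activated over pre-stimulation and 1 for silent over pre-stimulation with IL-13. Leaving out each cell in turn, the number higher ran from 2 to 6 for 30 min over pre-stimulation with IL-13, 0 to 1 for activated over silent with IL-13, 6 to 11 for 30 min over pre-stimulation with IL-5 and 0 to 3 for activated over silent with IL-5. Leaving out each cell in turn, the number lower ran from 1 to 2 for 30 min over pre-stimulation with IL-13, 1 to 2 for activated over pre-stimulation with IL-13, 0 to 1 for silent over pre-stimulation with IL-13, 2 to 5 for activated over silent with IL-13, 1 to 3 for activated over 30 min with IL-13, 0 to 1 for activated over silent with IL-5 and 0 to 2 for activated over 30 min with IL-5. Of the ratios of at least 2-fold of the 8 genes given in full, these turned direction, Ldhb at -3.63 for 30 min over pre-stimulation with IL-13 under the first date alone, Ldhb at -0.44 for 30 min over pre-stimulation with IL-13 under pre-stimulation cells of both indexes together, Pgd at -0.27 for silent over pre-stimulation with IL-13 under the first date alone and Ldhb at 1.66 for activated over 30 min with IL-13 under the first date alone. Of their smaller ratios, activated over silent turned on the first date for Pkm (0.18) and Pgd (1.38) with IL-13 and for Gapdh (-0.26) and Ldha (-0.13) with IL-5, as did activated over 30 min for Pgam1 (-0.07) and 30 min over pre-stimulation for Ldha (-0.17) with IL-5. Pre-stimulation cells of both indexes together turned 30 min over pre-stimulation for Ldha with IL-13 (-0.07) and Gapdh with IL-5 (-0.14), and the mean of the cells turned it for Gapdh with IL-5 (-0.12) and activated over silent for Pgd with IL-13 (0.23). Many ratios moved without a turn. Pooling the pre-stimulation cells shifted 26 ratios of the 8 genes past a set log2 distance, turned 1 of at least 2-fold and left 21 close. The first date alone shifted 30, turned 3 and left 47 close. TMM factors moved every ratio by 0.02 to 0.47 and turned Pgam1 activated over silent with IL-13 from -0.06 to 0.12, while ratios of at least 2-fold could not turn under shifts of this size. Values without the cycling cell, counts without Ldhb and levels without the leading cell were chosen after seeing the data. No paired analysis was possible because the results come from no test and cells of different groups are not matched 1 to 1, and ratios within a date are given in their place. Few reads in 5 pre-stimulation cells limit what can be said of the low genes.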
